A study of Homo sapiens with 2 samples.

Results

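The 48 genes described here encode glucose transporters, the enzymes of glycolysis and of the pentose phosphate pathway, the pyruvate dehydrogenase switch, and the regulators and targets of the hypoxia-inducible factors (HIF). They were chosen by gene symbol for their roles, with earlier results of these data known, and all 48 were found among the 25240 genes of the deposited tables, where they had 89 of 37839 transcripts. The study compared 2 RNA-seq libraries of T47D, an established human luminal A breast cancer cell line. The shNT cells carried a non-targeting short hairpin, and the shRON cells a short hairpin directed at RON, the receptor tyrosine kinase encoded by MST1R. After transduction both cultures were selected in 5 ug/mL puromycin, kept in 1 ug/mL, and grown in high-glucose DMEM with 10% serum. The control table is named as wild type but labelled with the non-targeting hairpin, and the label was followed. No oxygen level is given in the labels. Neither the number of hairpins nor whether the cells were a pool or a clone is given there.

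Glycolysis splits glucose into pyruvate in the cytosol, with an early phase that spends ATP and a later phase that regains it. The pentose phosphate pathway branches off after glucose is phosphorylated, makes NADPH in its oxidative arm, and exchanges sugar phosphates with glycolysis through transketolase and transaldolase in its non-oxidative arm. HIF is a heterodimer of an oxygen-labile alpha subunit, encoded by HIF1A or EPAS1, and the stable beta subunit encoded by ARNT. When oxygen is plentiful, prolyl hydroxylases of the EGLN family mark the alpha subunits for the ubiquitin ligase that contains VHL, and when it is scarce the alpha subunits accumulate and raise the transcription of genes for glycolysis, mitophagy, pH control and blood vessel growth. This control of the alpha subunits acts on the protein, so that RNA levels do not report it.

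There was 1 library per group. Every difference below therefore describes these 2 libraries, with no replicate check, no p-value and no standard error between cultures. Levels are deposited FPKM (fragments per kilobase of transcript, scaled to the mapped fragments of the library), summed over the transcripts of a gene. The log2 ratio is log2(FPKM + 1) in shRON minus log2(FPKM + 1) in shNT, which understates the ratio of low genes. A gene was called higher or lower where this ratio passed 1.5-fold. A gene was measured where it reached 1 FPKM in at least 1 library, which 12485 genes did. Ratios of FPKM without the added 1 are given with approximate 95% Clopper-Pearson intervals on estimated fragments, which cover counting error only.

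Depth was estimated from coverage at 11733046 fragments for shNT and 11341584 for shRON. MST1R, the hairpin's target, stood at 12.1 FPKM in shNT against 9.10 in shRON, a ratio of 0.749 (0.674 to 0.832). All 9 luminal markers were measured, with summed levels of 8781 FPKM in shNT and 6516 in shRON. Of these, 3 were lower in shRON (33.3%) and 0 higher, against 8.84% and 9.95% of all measured genes. The lower markers were PGR (76.7 to 35.1 FPKM), CDH1 (163 to 100.1 FPKM) and ESR1 (36.7 to 23.7 FPKM). Relative to the median of its neighbouring genes on the chromosome, CDH1 was at -0.38, short of 1.5-fold. The log2 ratio was below 0 in 6 markers and above 0 in 3. Those 3 were GATA3 (223 to 269 FPKM), EPCAM (115 to 119 FPKM) and FOXA1 (143 to 144 FPKM). Of 5 endothelial and 6 immune markers 0 were measured, and PTPRC, PECAM1 and VWF were listed at 0 in both libraries. Their summed levels were 0.0137 and 0.0141 FPKM for endothelium and 0.465 and 1.01 FPKM for immune cells, in shNT and shRON. The 6 fibroblast markers summed to 4.14 FPKM in shNT against 5.86 in shRON, and 2 of them were measured: COL1A1, at 3.95 and 4.27 FPKM, and COL3A1, at 0.0103 and 1.53 FPKM, which reached 1 FPKM in shRON only. The part of these differences in the results below was not tested. In bulk RNA, fewer cells that express a gene and less RNA per cell cannot be told apart.

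Of the 48 genes, 45 were measured. SLC2A3, PDK4 and CA9 did not reach 1 FPKM in either library. Among the 45, 10 were lower in shRON (22.2%), against 8.84% of all measured genes, and 6 were higher (13.3%), against 9.95%. At 2-fold, 3 were lower and 3 higher, against 2.17% and 3.32% of all measured genes. The lower genes were SLC2A10, ALDOA, ALDOC, PGAM1, PKM2, PFKFB4, EGLN1, ADM, AK3L1 and BNIP3. The higher genes were TKT, EPAS1, EGLN2, EGLN3, VEGFA and MXI1. By role, 4 of 15 glycolytic enzymes were lower and 0 higher, 1 of 6 pentose phosphate enzymes was higher and 0 lower, and 3 of 7 hypoxia regulators were higher and 1 lower. Hypoxia targets were divided, with 2 higher and 3 lower of 9 measured. The median log2 ratio was -0.42 for the glycolytic enzymes, 0.15 for the pentose phosphate enzymes, 0.52 for the hypoxia regulators and -0.27 for the hypoxia targets, beside 0.04 for all measured genes.

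**Figure D1:**
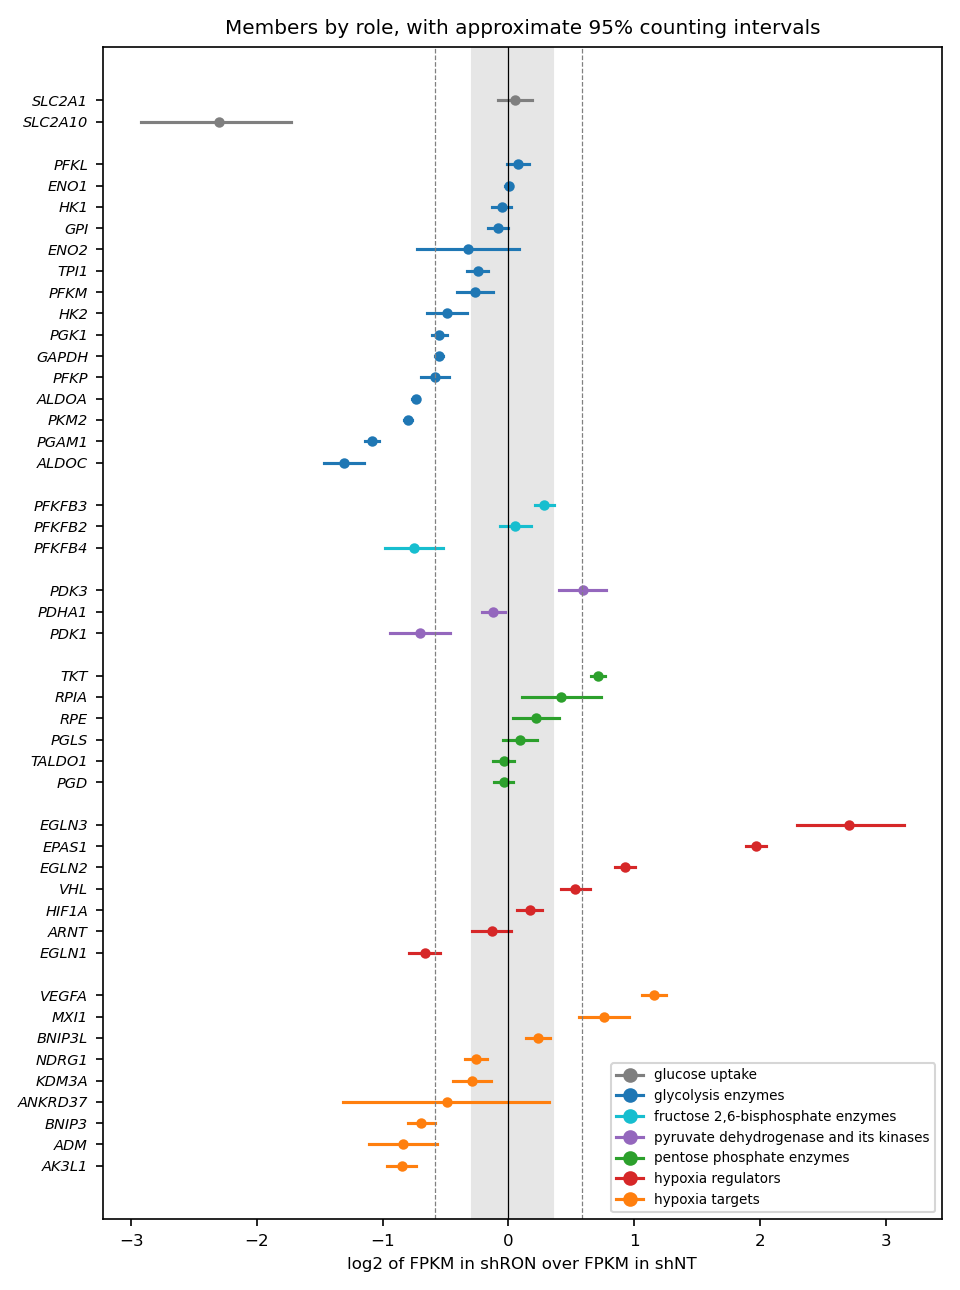
Log2 ratio of FPKM (shRON over shNT), with no pseudocount, for the 45 measured genes grouped by role and sorted within each role; lines are approximate 95% counting intervals, the grey band spans the quartiles of measured genes above 0 in both libraries (-0.29 to 0.35), and dashed lines mark 1.5-fold. The glycolytic enzymes lie at or left of 0 apart from PFKL and ENO1, while EGLN3, EPAS1 and VEGFA lie farthest to the right.

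Glucose enters these cells through transporters of the SLC2A (GLUT) family. SLC2A1, which encodes the widely expressed GLUT1 and is itself a HIF target, stood at 16.2 FPKM in shNT against 16.7 in shRON, a ratio of 1.04 (0.942 to 1.14). SLC2A3, which encodes the high-affinity GLUT3, was listed at 0 in both. SLC2A10, which encodes GLUT10, was lower, at 2.26 FPKM in shNT against 0.457 in shRON, a ratio of 0.203 (0.132 to 0.302) from an estimated 139 and 30 fragments. It reached 1 FPKM in shNT only, so that it could enter the comparison only through the library in which it was high, and with a pseudocount of 5 FPKM its log2 ratio was -0.41, short of 1.5-fold. The most abundant of the 3 transporters thus had a ratio whose counting interval spans 1.

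The difference within glycolysis lay mostly after the hexose phosphates. Hexokinase, which traps glucose as its phosphate, summed to 61.9 FPKM in shNT against 57.8 in shRON, with HK1 at 54.6 and 52.6, a ratio of 0.964 (0.914 to 1.02). HK2, the isozyme known for its induction in tumours and by HIF, stood at 7.39 and 5.28 FPKM, a log2 ratio of -0.42, which was -0.60 relative to its region, past 1.5-fold. GPI, which isomerises glucose phosphate to fructose phosphate, stood at 43.5 and 41.0 FPKM, a ratio of 0.943 (0.892 to 0.996). Without regional medians none of these 3 genes passed 1.5-fold.

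Phosphofructokinase, which makes the committed step, summed to 110 FPKM in shNT against 94.97 in shRON, and the isozymes differed. PFKL, the liver-type subunit, stood at 47.03 and 49.6 FPKM. PFKP, the platelet-type subunit, stood at 44.5 and 29.7 FPKM, a ratio of 0.668 (0.618 to 0.722), whose log2 ratio of -0.57 was just short of 1.5-fold on the FPKM + 1 scale and was -0.75 relative to its region. PFKM, the muscle-type subunit, stood at 18.8 and 15.7 FPKM. PFKP made up 40.3% of the summed FPKM of the 3 genes in shNT and 31.3% in shRON, and PFKL 42.6% and 52.2%.

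Aldolase, which cleaves fructose bisphosphate, was lower in both isozymes. ALDOA, at 1034 FPKM in shNT against 620 in shRON, had a ratio of 0.599 (0.587 to 0.612), and ALDOC, at 47.04 and 19.0 FPKM, a ratio of 0.404 (0.362 to 0.451). ALDOC had the lowest log2 ratio of the glycolytic enzymes, -1.26, and 1.00% of all measured genes were lower still. ALDOA lies on chromosome 16 (30064491 to 30081735) among genes that were lower too. The median log2 ratio of the 20 measured genes on each side of it was -0.24, and relative to them ALDOA was at -0.50, short of 1.5-fold.

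The next 3 enzymes, which act on triose phosphates, had ratios below 1 but did not pass 1.5-fold. TPI1, which interconverts the triose phosphates, stood at 125 and 105 FPKM, a ratio of 0.844 (0.796 to 0.895), and its main transcript carried the status LOWDATA in both libraries. GAPDH, which oxidises glyceraldehyde phosphate and often serves as a reference gene, stood at 850 FPKM in shNT against 579 in shRON, a ratio of 0.682 (0.665 to 0.698). PGK1, which makes the earliest ATP regained, stood at 171 and 117 FPKM, a ratio of 0.683 (0.657 to 0.711). GAPDH and PGK1 had log2 ratios of -0.55 each, and relative to their regional medians they were at -0.71 and -0.62, past 1.5-fold. Of all measured genes, 9.81% had a log2 ratio below that of GAPDH.

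PGAM1, which moves the phosphate of phosphoglycerate, stood at 347 FPKM in shNT against 164 in shRON, a ratio of 0.472 (0.454 to 0.491). It lies on chromosome 10 (99186027 to 99193198), where the median of its neighbours was -0.49, and relative to them it was at -0.58, just short of 1.5-fold. PKM2, the older symbol of PKM, encodes pyruvate kinase and stood at 584 and 336 FPKM, a ratio of 0.575 (0.562 to 0.588). Its region had a median of -0.20. Enolase stood apart from its neighbours in the pathway: ENO1 was at 818 FPKM in both libraries, a ratio of 1.00 (0.981 to 1.02), and the neuronal-type ENO2 at 3.33 and 2.67.

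Summed over the 15 enzymes, FPKM was 4195 in shNT and 2955 in shRON, 29.6% lower, against sums over all genes of 398372 and 382330. Most of that sum came from ALDOA, GAPDH, ENO1, PKM2 and PGAM1, and of these 5 ENO1 alone had a ratio at 1. Abundant genes as a class tended to be lower in shRON: the 595 measured genes with a mean of 100 FPKM or more had a median log2 ratio of -0.13, and 12.3% of them were lower. After a running median over genes of like abundance was subtracted, the median of the glycolytic enzymes was -0.40, and after regional medians were subtracted it was -0.50. Several of these genes have pseudogenes annotated by name, with 65 for GAPDH, 13 for PGAM1 and 5 for PKM. There are 4 each for ENO1 and TPI1, and 2 each for ALDOA and PGK1. Their sequences were not compared, and the sources used here do not say how reads were shared out among the copies.

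**Figure D2:**
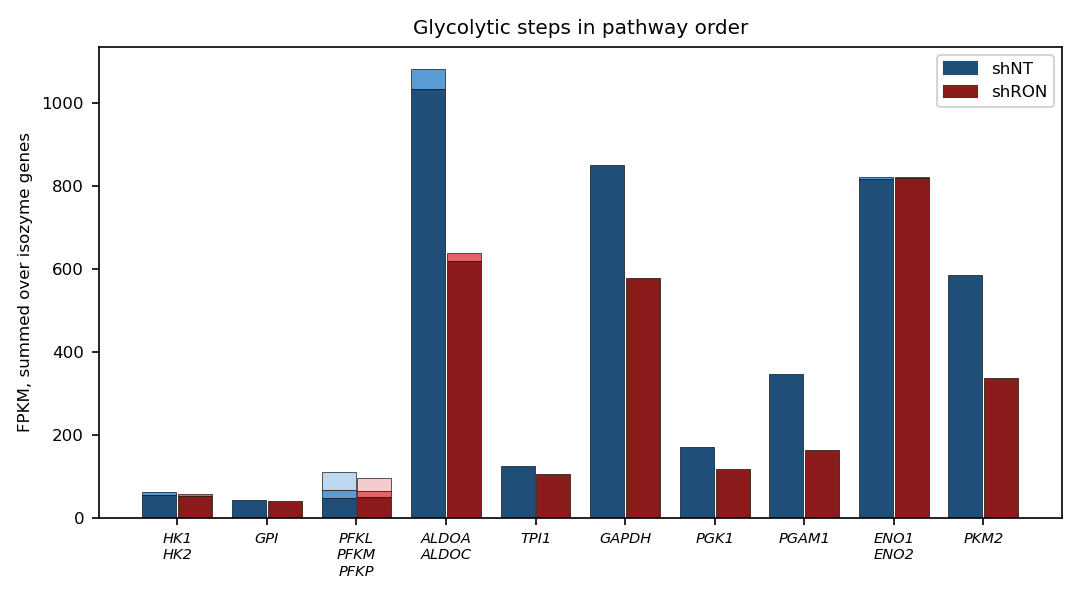
FPKM summed over the isozyme genes of each glycolytic step, in pathway order; blue bars are the shNT library and red bars the shRON library, with isozymes stacked from dark to light in the order of the axis label. Bars of hexokinase, GPI and enolase are of nearly equal height, whereas aldolase stands at 1081 (shNT) and 639 FPKM (shRON), and PGAM1 at 347 and 164.

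**Figure D3:**
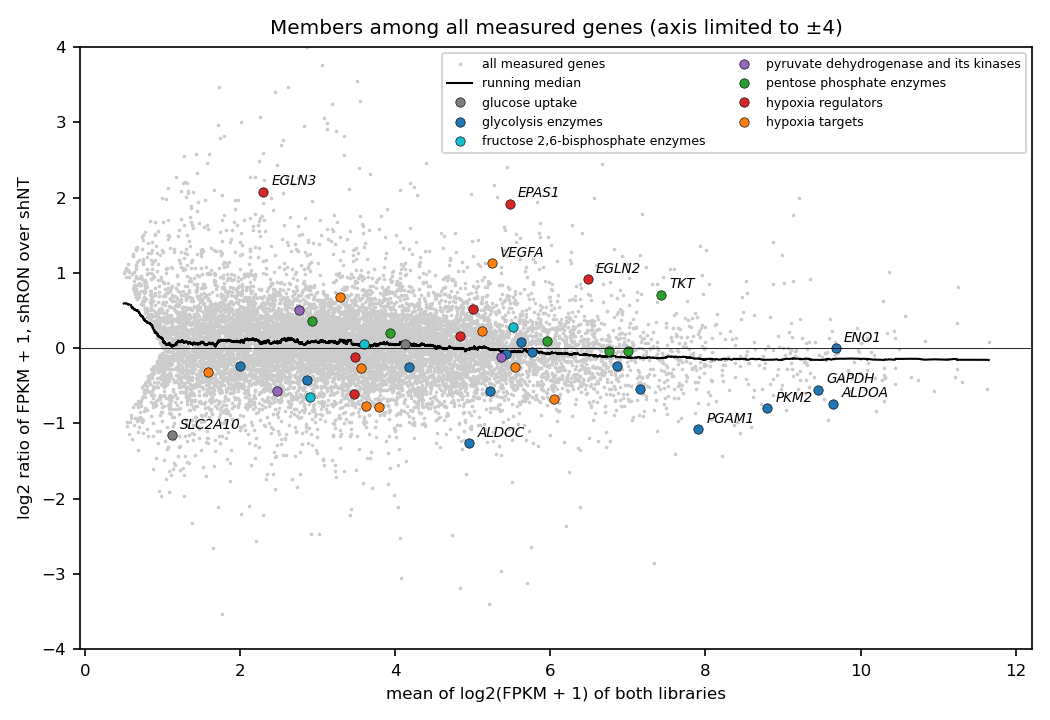
Log2 ratio of FPKM + 1 (shRON over shNT) against the mean log2(FPKM + 1) of both libraries, for all 12485 measured genes in grey and the 45 measured members in colour; the black line is the running median of 200 genes on each side. The running median declines towards abundant genes, and PGAM1, PKM2, ALDOA and GAPDH lie below it while ENO1 lies above it.

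The bifunctional PFKFB enzymes make and break the sugar bisphosphate that activates phosphofructokinase. PFKFB3, the isoform with the strongest kinase activity, was the most abundant, at 40.4 FPKM in shNT against 49.4 in shRON, a ratio of 1.22 (1.16 to 1.28). PFKFB2 stood at 10.9 and 11.3 FPKM. PFKFB4, which is induced by hypoxia in many cell types, was lower, at 8.38 and 4.97 FPKM, a ratio of 0.594 (0.506 to 0.696), but with a pseudocount of 5 FPKM its log2 ratio was -0.42 and it was no longer past 1.5-fold. The members of this family thus stood on different sides of 1.

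Pyruvate dehydrogenase carries pyruvate into the mitochondrial citric acid cycle and is switched off by its kinases. PDHA1, which encodes the phosphorylated subunit, stood at 41.8 FPKM in shNT against 38.5 in shRON. PDK1, the kinase best known as a HIF target, stood at 5.79 and 3.56 FPKM, a ratio of 0.615 (0.521 to 0.724) and a log2 ratio of -0.57, just short of 1.5-fold, which was -0.77 relative to its region. PDK3 stood at 4.71 and 7.10 FPKM, a log2 ratio of 0.50, yet its estimated fragments numbered 489 and 464. The gene has a listed transcript of 12779 bases and another of 1803 bases, and the short one took 52.0% of FPKM in shNT and 75.6% in shRON, so that the FPKM of PDK3 depends on how fragments were divided between them. PDK4 stood at 0.280 and 0.393 FPKM.

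The pentose phosphate enzymes had ratios near or above 1. Their summed FPKM was 449 in shNT and 537 in shRON, and 4 of 6 had log2 ratios above 0. TKT, which encodes transketolase of the non-oxidative arm, accounted for most of the difference: it was at 134 FPKM in shNT against 219 in shRON, a ratio of 1.64 (1.58 to 1.71). TKT was the only pentose phosphate enzyme past 1.5-fold, and relative to a regional median of 0.17 it was at 0.54, short of that size. It lies on the minus strand of chromosome 3 (53258723 to 53290068).

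The remaining enzymes of this pathway lay nearer to 1. In the oxidative arm, PGLS, the lactonase, stood at 59.0 and 62.9 FPKM, and PGD, which makes the later NADPH, at 109 and 106. In the non-oxidative arm, RPIA, the ribose phosphate isomerase, stood at 5.70 and 7.62 FPKM, a ratio of 1.34 (1.08 to 1.66), and RPE, the epimerase, at 13.2 and 15.4. TALDO1, transaldolase, stood at 129 and 126 FPKM. PGD and TALDO1 were thus within counting error of 1, with ratios of 0.974 each and intervals of 0.926 to 1.02 and 0.918 to 1.03. RPE has 6 pseudogenes annotated by name and overlaps another measured gene.

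Of 7 other genes of the pentose phosphate pathway, 6 were measured and 0 were past 1.5-fold in either direction. Of all measured genes 8.84% were lower and 9.95% higher. PRPS1, which turns ribose phosphate into the precursor of nucleotides, stood at 9.75 and 14.5 FPKM (0.52). The median of the 6 was 0.11.

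Of 22 other genes of glycolysis and gluconeogenesis, 9 were measured. Of these 2 were lower (22.2%) and 1 higher (11.1%), against 8.84% and 9.95% of all measured genes. FBP1, which encodes the gluconeogenic phosphatase that opposes phosphofructokinase, was lower, at 33.1 FPKM in shNT against 6.86 in shRON, a ratio of 0.207 (0.174 to 0.246). Its region on chromosome 9 had a median of -0.52, and relative to it FBP1 was at -1.60. ADPGK, which encodes an ADP-dependent glucokinase, was at 14.5 and 8.35 FPKM, and its log2 ratio of -0.73 was -0.41 relative to its region. SLC2A12 was higher, at 0.0994 and 1.28 FPKM, and reached 1 FPKM in shRON only. Among 10 other genes of the pyruvate dehydrogenase complex and its control, PDP1 was higher (1.64 to 5.27 FPKM) and PDP2 lower (5.68 to 2.44 FPKM). Both encode phosphatases that reactivate the complex, and the other 8 genes did not pass 1.5-fold. The region of PDP2 had a median of -0.43, and relative to it PDP2 was at -0.52, short of 1.5-fold. The share called was 10% in each direction, near that of all measured genes.

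The hypoxia regulators EGLN3 and EPAS1 had the highest log2 ratios of the 45 measured genes. EPAS1, which encodes HIF-2 alpha, stood at 21.9 FPKM in shNT against 85.6 in shRON, a ratio of 3.91 (3.70 to 4.13) from an estimated 1670 and 6389 fragments. Its log2 ratio of 1.92 was exceeded by 0.633% of all measured genes, and its region had a median of 0.09. HIF1A, which encodes HIF-1 alpha, stood at 26.0 and 29.2 FPKM, a ratio of 1.12 (1.05 to 1.20). EPAS1 thus made up 45.7% of the summed FPKM of both alpha subunits in shNT and 74.5% in shRON. ARNT, the shared beta subunit, stood at 10.7 and 9.76 FPKM.

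The prolyl hydroxylases differed in direction. EGLN3, which encodes PHD3 and is itself a HIF target, was higher, at 1.39 FPKM in shNT against 9.11 in shRON, a ratio of 6.54 (4.91 to 8.85) from an estimated 55 and 357 fragments. EGLN2, which encodes PHD1 and is known as an estrogen-inducible gene in breast cancer cells, was higher, at 63.9 and 122 FPKM, a ratio of 1.91 (1.80 to 2.01). EGLN1, which encodes PHD2, the main oxygen sensor for HIF and also a HIF target, was lower, at 12.7 and 7.97 FPKM, a ratio of 0.630 (0.577 to 0.687). EGLN1 lies in a region of chromosome 1 with a median of -0.37, and relative to it the gene was at -0.23. The EGLN1 call was also lost with a pseudocount of 5 FPKM, at -0.45. EGLN2 remained the most abundant of the 3, at 82.0% of their summed FPKM in shNT and 87.7% in shRON, while the share of EGLN1 was 16.2% and 5.74%.

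VHL, which encodes the substrate receptor of the ligase that degrades hydroxylated alpha subunits, was listed at 25.7 and 37.2 FPKM, a ratio of 1.45 (1.34 to 1.56) and a log2 ratio of 0.52, short of 1.5-fold. Of 13 other regulators, 11 were measured. Of all measured genes 8.84% were lower and 9.95% higher, and of these 11 regulators 0 were lower and 1 was higher (9.09%). That was CITED2, which competes with HIF alpha for the coactivators p300 and CBP, at 133 FPKM in shNT against 277 in shRON, a ratio of 2.09 (2.01 to 2.17). The genes of those coactivators, EP300 and CREBBP, had log2 ratios of 0.25 and 0.10. HIF1AN, which encodes the asparaginyl hydroxylase FIH, stood at 18.8 and 12.7 FPKM, a log2 ratio of -0.53 in a region with a median of -0.51.

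**Figure D4:**
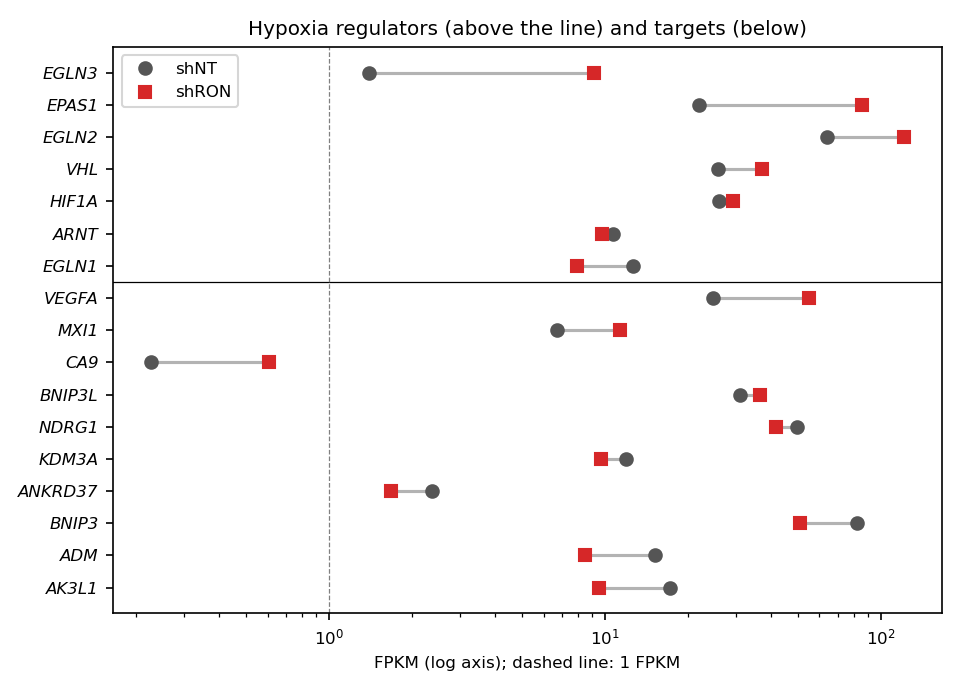
FPKM of the 7 hypoxia regulators and 10 hypoxia targets in the shNT library (grey circles) and the shRON library (red squares), on a log axis with 1 FPKM dashed. EGLN3, EPAS1, EGLN2, VEGFA and MXI1 stand to the right in shRON, EGLN1, ADM, AK3L1 and BNIP3 to the left, and CA9 is under 1 FPKM in both.

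HIF targets were found on both sides of 1. VEGFA, the angiogenic growth factor, was higher, at 24.7 FPKM in shNT against 55.0 in shRON, a ratio of 2.23 (2.09 to 2.39). MXI1, which encodes an antagonist of MYC, was higher, at 6.72 and 11.4 FPKM, a ratio of 1.69 (1.48 to 1.95), but was at 0.48 with a pseudocount of 5 FPKM. CA9, which encodes the tumour-associated carbonic anhydrase IX and is among the genes most dependent on HIF-1, stayed under 1 FPKM, at 0.227 and 0.608 from an estimated 6 and 13 fragments. Its ratio of 2.68 had an interval of 0.951 to 8.61, so that no difference was detectable at this depth.

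The lower targets served peptide signalling, nucleotide balance and mitophagy. ADM, which encodes the vasodilator adrenomedullin, stood at 15.2 and 8.47 FPKM, a ratio of 0.559 (0.463 to 0.674), and its log2 ratio was -0.58 with a pseudocount of 5 FPKM, just short of 1.5-fold. AK3L1, the older symbol of AK4, a mitochondrial adenylate kinase, stood at 17.2 and 9.57 FPKM, a ratio of 0.555 (0.512 to 0.600). BNIP3, a mitophagy receptor, stood at 82.4 and 51.0 FPKM, a ratio of 0.619 (0.575 to 0.666), while its relative BNIP3L stood at 31.0 and 36.5. As with GAPDH, pseudogenes named for BNIP3 (44) and AK4 (5) leave the division of reads uncertain.

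NDRG1, a stress-induced gene of differentiating epithelia, stood at 49.8 and 41.7 FPKM, a log2 ratio of -0.25, and its region of chromosome 8 had a median of 0.54, relative to which it was at -0.79, past 1.5-fold. KDM3A, a histone demethylase, stood at 11.9 and 9.73 FPKM, and ANKRD37 at 2.36 and 1.69. Without regional medians none of these 3 passed 1.5-fold. Members that overlap another measured gene, so that reads may be shared without strand, were SLC2A1, TPI1, RPE, PDHA1, ARNT and ANKRD37.

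Of 31 other hypoxia targets, 30 were listed under the symbol used and 23 were measured. Of these 8 were lower (34.8%) and 4 higher (17.4%), against 8.84% and 9.95% of all measured genes. Their median was -0.13, beside 0.04 for all measured genes. HILPDA was the symbol not found, and its older symbol C7orf68 was in the same list. Those with the largest ratios were STC1 (3.21 to 0.469 FPKM, log2 ratio -1.52), which encodes stanniocalcin and reached 1 FPKM in shNT only, CA12 (165 to 66.0 FPKM, -1.31), a carbonic anhydrase that is also an estrogen-response gene, PLOD2 (36.8 to 17.02 FPKM, -1.07), a collagen lysyl hydroxylase, and DDIT4 (39.2 to 82.4 FPKM, 1.05), an inhibitor of mTORC1 that ATF4 also induces. The collagen prolyl hydroxylase genes P4HA1 and P4HA2 were both lower, with log2 ratios of -0.66 and -0.64. Relative to their regional medians they were at -0.83 and -0.28, so that P4HA2 was then short of 1.5-fold. Besides DDIT4, the higher genes were TMEM45A, WSB1 and C7orf68, with log2 ratios of 0.77, 0.66 and 0.64. Relative to its region C7orf68 was at 0.42, short of 1.5-fold.

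Because HIF binds a short DNA element, the 250 bases before the start of the most abundant transcript of each gene were searched for its core ACGTG and for GCGTG, on both strands. The core ACGTG is contained in CACGTG, the E-box bound by MYC and USF factors. ACGTG was found in 15 of the 48 promoters (31.2%), against 22.3% of 11539 measured genes, and GCGTG in 24 of 48, against 44.9%. Among the hypoxia targets 4 of 10 held ACGTG, and 10 of 10 held at least 1 of the 2 motifs, against 56.6% of the measured genes. The median GC content of the window was 69.2% for the hypoxia targets and 64.4% for the measured genes. Pyruvate dehydrogenase and its kinases, at a median of 72% GC, held at least 1 motif in 4 of 4 promoters. Both motifs contain CG, and the part of GC content in these counts was not tested. Among the glycolytic enzymes 6 of 15 held ACGTG, and among the hypoxia regulators 1 of 7. A match is a description of letters and not a bound site, and elements outside this window were not searched.

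The promoters of 4 genes that hold the core ACGTG are shown first: CA9, a HIF target that was hardly detected, and BNIP3, PGK1 and ALDOC, with FPKM ratios under 1. Those of EPAS1 and EGLN3, which were higher, follow for contrast, since neither holds that core in the window. The sequences were read from the GRCh37 (hg19) genome on the strand of the gene, 5′ to 3′, and end 1 base before the transcript start. Capitals mark both motifs on either strand. They lie at chr9:35673665-35673914 on the plus strand for CA9, chr10:133795436-133795685 (minus) for BNIP3, chrX:77359416-77359665 (plus) for PGK1, chr17:26903952-26904201 (minus) for ALDOC, chr2:46524291-46524540 (plus) for EPAS1 and chr14:34420285-34420534 (minus) for EGLN3.
CA9: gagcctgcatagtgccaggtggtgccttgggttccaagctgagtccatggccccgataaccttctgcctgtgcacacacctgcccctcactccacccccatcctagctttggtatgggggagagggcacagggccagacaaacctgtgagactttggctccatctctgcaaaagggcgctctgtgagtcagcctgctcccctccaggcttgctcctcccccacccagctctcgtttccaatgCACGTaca
BNIP3: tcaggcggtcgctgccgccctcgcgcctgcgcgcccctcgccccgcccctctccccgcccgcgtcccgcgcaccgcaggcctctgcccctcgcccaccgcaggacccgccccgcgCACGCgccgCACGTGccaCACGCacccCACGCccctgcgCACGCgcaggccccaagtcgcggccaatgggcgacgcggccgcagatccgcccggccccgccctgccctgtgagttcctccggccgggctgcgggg
PGK1: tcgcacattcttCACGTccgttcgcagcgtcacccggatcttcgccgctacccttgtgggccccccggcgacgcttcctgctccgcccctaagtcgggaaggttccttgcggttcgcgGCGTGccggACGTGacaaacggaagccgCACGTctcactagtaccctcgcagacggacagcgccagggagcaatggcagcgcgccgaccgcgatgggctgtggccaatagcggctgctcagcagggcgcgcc
ALDOC: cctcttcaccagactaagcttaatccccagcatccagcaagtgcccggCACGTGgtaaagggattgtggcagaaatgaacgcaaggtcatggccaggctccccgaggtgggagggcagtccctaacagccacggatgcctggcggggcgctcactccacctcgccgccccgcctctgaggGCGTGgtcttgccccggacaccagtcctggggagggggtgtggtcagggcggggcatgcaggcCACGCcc
EPAS1: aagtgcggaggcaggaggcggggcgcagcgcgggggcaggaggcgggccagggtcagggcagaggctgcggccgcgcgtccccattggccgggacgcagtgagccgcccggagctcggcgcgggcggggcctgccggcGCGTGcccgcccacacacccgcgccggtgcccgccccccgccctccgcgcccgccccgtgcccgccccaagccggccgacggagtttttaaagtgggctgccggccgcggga
EGLN3: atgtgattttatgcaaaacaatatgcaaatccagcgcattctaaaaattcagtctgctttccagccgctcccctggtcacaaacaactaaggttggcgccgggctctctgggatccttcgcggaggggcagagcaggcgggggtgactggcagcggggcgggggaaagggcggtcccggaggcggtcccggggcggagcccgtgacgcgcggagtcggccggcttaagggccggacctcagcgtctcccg

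In CA9 the single core starts 8 bases before the transcript start. In BNIP3 it is the palindrome CACGTG, 126 bases before the start, with 4 copies of GCGTG, counted on both strands, in the window. PGK1 holds 3 cores, at 238, 123 and 104 bases before the start, and 1 GCGTG. ALDOC holds CACGTG 202 bases before the start. EPAS1 holds 1 GCGTG, and EGLN3 holds neither motif. Genes with and without the core were thus found on both sides of 1 in their FPKM ratio: PGAM1 and HK2 hold ACGTG, PKM2 and PFKP do not, and HIF1A holds CACGTG with a ratio of 1.12.

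Transcript shares were compared within the 20 members that had several listed transcripts, status OK throughout and 5 FPKM or more in both libraries. The share of at least 1 transcript moved by 10 percentage points or more in 4 of them, PFKM, EGLN2, AK3L1 and KDM3A, against 783 of 3103 such genes in all (25.2%). Shares of Cufflinks transcripts are estimates from shared reads, and no interval was available for them.

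In PFKM, transcript NM_001166687.1 made up 33.8% of FPKM in shNT and 3.24% in shRON, and NM_000289.5 was at 61.3% and 89.0%. In EGLN2, transcript NM_053046.2, which starts downstream of the other, was at 5.32 FPKM in shNT against 36.5 in shRON, a share of 8.32% and 29.9%. Transcript NM_080732.2 of EGLN2 was at 58.6 and 85.3 FPKM, and with this most abundant transcript alone the log2 ratio of the gene was 0.53, short of 1.5-fold. In AK3L1 the order changed: NM_013410.3 was at 63.9% and 45.9%, and NM_203464.2 at 26.3% and 49.2%. In KDM3A, NM_018433.5 was at 13.0% and 26.5%.

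In the other 16 of these 20 genes no share moved by 10 percentage points, and the largest move was that of VHL, whose NM_198156.1 was at 5.03% and 14.2%. PDK3, described above, was under 5 FPKM in shNT and so was not among the 20. PKM pre-mRNA is spliced to the M1 form of adult muscle and brain or to the M2 form of tumours and growing cells. The M2 transcript NM_002654.3 was at 98.4% of FPKM in shNT and 98.6% in shRON, and so made up nearly all of the gene's level in both. The other listed transcripts of PKM stood lower in shRON too, NM_182471.1 at 7.69 and 4.33 FPKM and NM_182470.1 at 1.58 and 0.392. HK1 was listed almost wholly under NM_000188.2 in both libraries. The 3 most abundant transcripts of VEGFA each stood higher in shRON: NM_001025370.2 at 9.18 and 18.5 FPKM, NM_001025368.2 at 6.61 and 14.7, and NM_003376.5 at 6.27 and 16.7. HIF1A was at 98.2% and 93.6% under NM_001530.3.

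**Figure D5:**
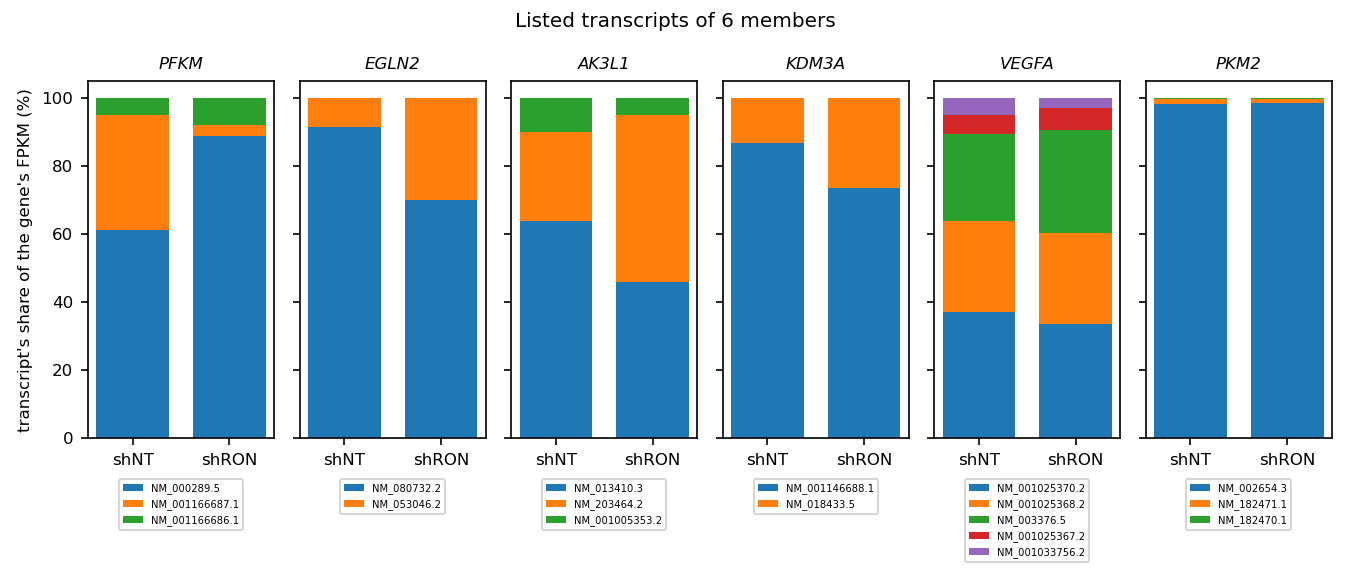
Share of each listed transcript in the summed FPKM of its gene, in percent, in the shNT and shRON libraries, for the 4 genes whose shares moved by 10 percentage points or more (PFKM, EGLN2, AK3L1, KDM3A) and for VEGFA and PKM2. The bars of VEGFA and PKM2 are nearly alike in both libraries, and the orange transcript grows in EGLN2, AK3L1 and KDM3A and shrinks in PFKM.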

How the data were processed

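The authors deposited 1 table per library whose columns follow Cufflinks, per the file headers: FPKM, coverage and a status for each RefSeq transcript. The build was hg19, and DESeq is named without a role or version, per the submitters' processing notes. Aligner, Cufflinks version and whether the TruSeq kit marked strand were not given in the sources used here. Deposited FPKM was summed per gene, after the tables were joined on the transcript identifier. No scaling between libraries is stated and none was added. Small RNA genes (1356) and genes under 1 FPKM in both libraries were left out of comparisons. The pseudocount was 1 FPKM.

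The deposited coverage (mean read depth, a signal not divided by library size) multiplied by transcript length gave bases per gene, and these were divided by 247 bases (shNT) or 244 (shRON), the median over 405 and 400 genes with a single transcript of 1500 bases or more and a product between 150 and 325 bases, which was taken as 1 read pair. These estimated fragments gave the 95% Clopper-Pearson intervals. With 1 library per group no test was run and nothing could be left out or paired. The regional median was taken over 20 measured genes on each side of a gene. The call rule was tested on simulated counts with changes larger than its threshold, and the intervals on simulated counts at equal levels. Changes near 1.5-fold, errors of estimating fragments from coverage, and variation between cultures were not simulated.

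Coordinates are those of the tables, counted from 1. Strand and pseudogene names came from GENCODE release 44 lifted to GRCh37, whose coordinates are those of hg19, and older symbols were matched through RefSeq synonyms; all 48 members matched. The members, lists and size rules were chosen with earlier results of these data known. Every member was placed in its role group. Of other pathway genes, at most 4 per list were named by rule, those with the largest log2 ratios past 1.5-fold. Others named beside them were PRPS1, HIF1AN, EP300, CREBBP, P4HA1, P4HA2, TMEM45A, WSB1 and C7orf68. These were chosen after their values were seen, as were the 6 promoters shown. There were 8 alternatives planned and 2 added after seeing the data. Python 3.11.15, pandas 2.3.3, NumPy 2.4.6, SciPy 1.17.1 and matplotlib 3.10.9 were used.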

Additional observations from a re-analysis of the deposited data

How the results depend on the processing

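No paired analysis was possible because each group holds 1 library, and for the same reason no library could be left out. Across the 10 alternatives the medians of glycolytic enzymes, pentose phosphate enzymes, hypoxia regulators and hypoxia targets kept their sign. With a pseudocount of 5 FPKM the glycolytic median was -0.27, and 6 of 45 members were lower in place of 10, against 3.72% of all measured genes at that setting in place of 8.84%. The highest number of lower members was 13, both with regional medians subtracted (6.32% of all measured genes lower) and with ratios centred on the median of all measured genes (10.0%). With only the most abundant transcript the median of hypoxia regulators was 0.37. With regional medians subtracted the median of hypoxia targets was -0.44, and that of pentose phosphate enzymes 0.03. The number of higher members was 5 or 6 throughout. No called member changed sign. Calls were lost for SLC2A10, PFKFB4, EGLN1, ADM and MXI1 with the pseudocount of 5 FPKM, for ALDOA, PGAM1, EGLN1 and TKT with regional medians subtracted, for EGLN2 with the most abundant transcript, and for MXI1 (0.57) with the running median over like abundance subtracted, an alternative chosen after seeing the data. Calls were gained as lower for HK2, PFKP, GAPDH, PGK1, PDK1 and NDRG1 with regional medians subtracted and for PFKP, GAPDH and PDK1 with centring. PDK1 was also gained with a pseudocount of 0.1 FPKM, with the running median subtracted and with estimated fragments. With the most abundant transcript PDK3 was gained as higher, at 2.45 FPKM in shNT against 5.37 in shRON. Estimated fragments in place of FPKM, also chosen afterwards, kept all 16 calls. Depth limits statements on CA9, PDK4 and ANKRD37, each with under 50 estimated fragments in both libraries.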
